A study of Homo sapiens with 32 samples.

Results

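The miR-193 and miR-365 hairpins lie in human cells as 2 pairs, mir-193b with mir-365a and mir-193a with mir-365b. They were followed here in small RNA libraries of 293T cells, a line derived from human embryonic kidney and transformed with viral genes. The 4 rows mir-193a, mir-193b, mir-365a and mir-365b were chosen by name out of 1513 miRNA precursor rows in a table of read counts. They were singled out with earlier results of these data known, so the tests below are not independent of that choice. The mir-365a and mir-365b rows hold nearly equal counts and are treated as 1 signal, and that near equality is given without a test. The 32 libraries came from 8 cell clones, so that each genotype rests on 4 clones. Wild-type clones were numbered 52, 55, 57 and 67. Deletion clones 30, 34, 42 and 43 carried a prime-edited DGCR8 without residues 103 to 126, the reported ERH binding site. Each clone was transiently transfected with 1 of 4 vectors per library, either of a pair of non-targeting short hairpin RNAs (control shRNA 1 or 2) or either of a pair against ERH (ERH shRNA 1 or 2), and cells were selected with puromycin, then sorted on day 5 for the marker that the vector encodes. ERH and DGCR8 mRNA are not part of a miRNA table, so neither the knockdown nor the edit could be checked in these values.

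A miRNA starts as a hairpin in a long primary transcript. The Microprocessor, made of the nuclease DROSHA and its RNA-binding partner DGCR8, cuts the hairpin out, and Dicer then releases the mature strands. ERH is a small nuclear protein that binds DGCR8, and it is known for helping hairpins that are poor Microprocessor substrates when a better hairpin lies in the same transcript. Mature miR-193a and miR-193b have been studied as repressors of urokinase and of the survival factor MCL1, and the miR-193b and miR-365 pair in brown fat development.

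The sequences are shown because the members share much of their mature strands. The mature 3p strands are printed with the seed, bases 2 to 8, in capitals, since the seed pairs with target mRNAs (RefSeq, GRCh38.p14).
miR-193a-3p: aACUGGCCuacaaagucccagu
miR-193b-3p: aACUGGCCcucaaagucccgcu
miR-365a-3p: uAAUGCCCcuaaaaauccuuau
miR-365b-3p: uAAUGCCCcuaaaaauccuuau
The 2 miR-193 strands share their seed and are identical at 18 of 22 bases. They differ by U9C, A10U, A20G and G21C, counted from the 5′ end with the miR-193a-3p base first. The 2 miR-365 strands are identical at all 22 bases, so a read of this strand alone cannot name its locus. No other of the 2370 mature names in the RefSeq table has either seed.

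The 5p strands differ between all 4 loci, but whether a row of the table holds reads of both strands is not stated (seed in capitals).
miR-193a-5p: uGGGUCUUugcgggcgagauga
miR-193b-5p: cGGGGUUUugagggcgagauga
miR-365a-5p: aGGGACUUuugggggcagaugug
miR-365b-5p: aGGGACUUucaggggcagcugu
The 2 miR-365 strands share this seed as well, and an alignment matched 19 of 22 bases. The miR-193 5p strands matched at 18 of 22 bases and differ within the seed.

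The 4 hairpins are printed with the mature 3p strand in capitals, to show where the shared miR-365 strand sits in 2 different precursors.
MIR193B: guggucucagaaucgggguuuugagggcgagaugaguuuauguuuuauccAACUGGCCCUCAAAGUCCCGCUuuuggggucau
MIR365A: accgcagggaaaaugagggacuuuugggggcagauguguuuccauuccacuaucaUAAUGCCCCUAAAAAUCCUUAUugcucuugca
MIR193A: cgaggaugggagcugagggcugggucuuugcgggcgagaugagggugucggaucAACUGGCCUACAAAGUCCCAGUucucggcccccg
MIR365B: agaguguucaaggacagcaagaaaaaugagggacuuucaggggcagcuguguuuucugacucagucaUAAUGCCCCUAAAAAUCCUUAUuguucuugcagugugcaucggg
In an end-free alignment the miR-365 hairpins matched at 73 of 86 paired bases and the miR-193 hairpins at 54 of 80. The hairpins of 1 pair are also alike, with 53 of 74 matching bases between MIR193B and MIR365A.

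MIR193B lies on the plus strand of chromosome 16 at 14303967 to 14304049 and MIR365A at 14309285 to 14309371, 5235 bases further on (GRCh38). Both sit in introns of the lincRNA gene MIR193BHG in GENCODE 29, in which none of the 4 transcripts spanning each hairpin has an exon there. MIR193A lies on the plus strand of chromosome 17 at 31559996 to 31560083, outside any annotated host. MIR365B follows 15327 bases later at 31575411 to 31575521. It lies in the lincRNA gene AC003101.1, with 11 of its 111 bases in an exon and the rest in an intron. MIR4725 ends 52 bases before MIR365B, but its row held 13 counts over all 32 libraries.

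The hairpins also differ in base composition and in predicted folding. MIR365A and MIR365B are 44.8% and 45.0% G and C, MIR193B 49.4% and MIR193A 63.6%. The predicted folding energy per base was -0.40 and -0.35 kcal/mol for MIR365A and MIR365B, -0.47 for MIR193B and -0.57 for MIR193A. Of 653 tested rows with a GENCODE hairpin, 74.4% had a more stable hairpin per base than mir-365a and 87.6% more than mir-365b. For mir-193b this share was 48.4% and for mir-193a 21.4%. These energies are computed from the annotated hairpin alone, without further flanking bases that the Microprocessor also contacts. Annotated lengths differ, at 87 bases for MIR365A and 111 for MIR365B, so the energy per base may also depend on how much was annotated.

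Libraries held 1318923 to 6222790 miRNA counts, with a median of 2299476.5. The libraries of clone 57 stood apart, at -11.0 to -9.16 on the second principal component of 314 abundant rows against -5.30 to 5.55 for the other 28. The labels name the clone as the batch, and each arm is compared within it below. Whether repeated transfections of 1 clone were separate cultures is not stated, so the clone is the replicate throughout.

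The mir-365a row held 378 to 4792 counts per library (median 2091) and the mir-365b row 376 to 4775 (median 2088). Their ratio lay between 0.993 and 1.01. The excess of mir-365a was 237 counts in all, or 0.361% of its 65741 counts. It was positive in 28 libraries, 0 in 2 and negative in 2. The mean of both rows is called the miR-365 signal, and it may come from either locus in any proportion. The mir-193b row was far less abundant, with 54 to 275 counts per library (median 137), and mir-193a the least, with 19 to 165 (median 50.5). For each clone, the counts of both control libraries were added together, as were those of both ERH libraries. The smallest sum was 53 for mir-193a, with an exact 95% Poisson interval of 39.7 to 69.3. It was 151 for mir-193b (128 to 177) and 2159 for mir-365a (2069 to 2252). These intervals cover counting error only.

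ERH knockdown lowered the miR-365 signal in every clone, while neither miR-193 row changed past the threshold. In wild-type clones 52, 55, 57 and 67 the miR-365 signal under control shRNAs was 1578, 1730.1, 1259 and 1430.2 CPM, which are counts scaled to library size by the TMM method. Under ERH shRNAs it was 750.5, 682, 458 and 427 CPM in the same order. The highest ERH sum lay below the lowest control sum. Single libraries overlapped, with ERH shRNA 2 up to 909 CPM and control shRNA 2 down to 899 CPM. How many of all rows separate by arm in their sums was not counted. The group means of the sums were 1499 ± 202 and 579.6 ± 161 CPM (SD, n = 4). In deletion clones 30, 34, 42 and 43 the control values were 781, 1084, 1533 and 799 CPM. The ERH values were 489, 453, 669 and 405 CPM, again all below the lowest control sum. Single libraries overlapped here too, with ERH shRNA 1 up to 817 CPM and control shRNA 1 down to 758 CPM. The means of the sums were 1049 ± 351 and 504 ± 115 CPM (SD, n = 4).

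Over all 8 clones mir-365a changed by a log2 fold change of -1.22 ± 0.12 (SE), to 0.431 of the control level. Its adjusted p was 3.91e-08 (edgeR quasi-likelihood test, Benjamini-Hochberg), and the 95% interval ran from -1.46 to -0.97. The value of mir-365b was also -1.22, with the same adjusted p. Of 667 rows tested, 36.6% were called in either direction and 16.5% lower, so that a call by itself was common. By size of change the 2 rows ranked 23 and 22 from the lowest. Within clones the log2 change of the signal ran from -1.74 in clone 67 to -0.67 in clone 30, below 0 in 8 of 8. Without clone 57 the value for mir-365a was -1.19 and without clone 30 it was -1.27.

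**Figure D1:**
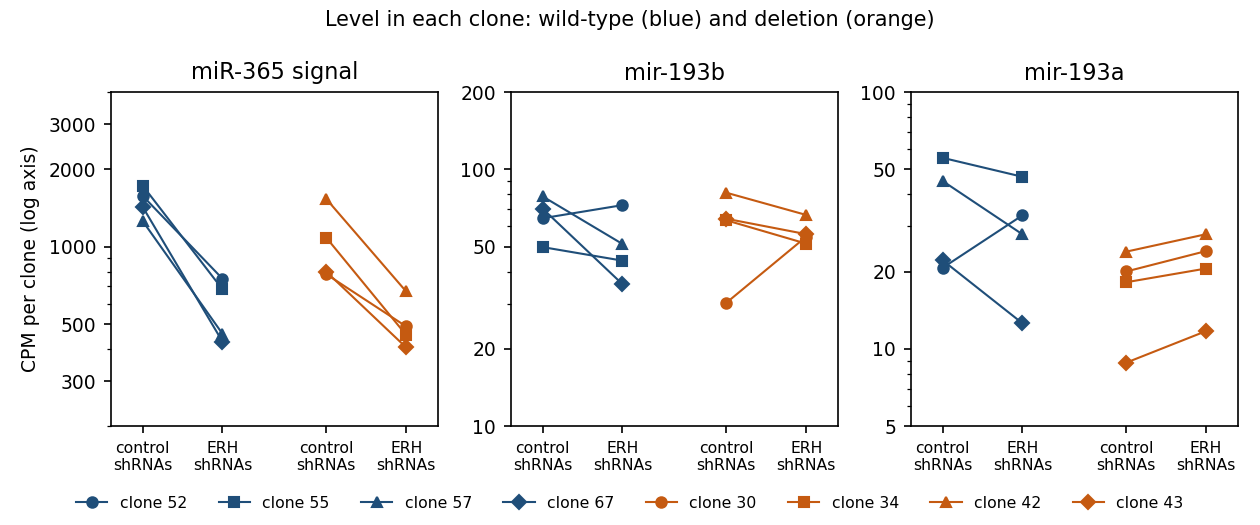
CPM (log axis) of the miR-365 signal, mir-193b and mir-193a in each clone, with a line joining the control and ERH sums of 1 clone. Every miR-365 line goes down, while the lines of mir-193b and mir-193a go both ways.

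In wild-type clones alone the log2 fold change of mir-365a was -1.35 ± 0.18 (SE, adjusted p = 2.04e-05 by edgeR), where 10.4% of 613 rows were called lower. In deletion clones it was -1.06 ± 0.12 (SE, adjusted p = 0.000216 by edgeR), where 6% of 633 rows were called lower. The difference between these effects, the interaction, was 0.37 ± 0.20 (SE, adjusted p = 0.319 by edgeR), with a 95% interval of -0.05 to 0.80, and -0.026 with spike-in scaling. The interaction called 0% of 667 rows by edgeR, 127 rows had an unadjusted p under 0.05, and DESeq2 called 16.

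The choice of scale changed the size of the miR-365 drop and not its direction. Spike-in scaling, which relates counts to RNA added in fixed amount, gave -0.75 for mir-365a over all clones (adjusted p = 0.00121 by edgeR). Scaling by total miRNA counts gave -0.94. The median of all rows moved from 0.06 on the TMM scale to 0.52 and 0.33 on these scales. The miR-193 rows moved with it and turned positive, mir-193b to 0.27 and 0.08 and mir-193a to 0.46 and 0.27, still without a call.

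Of the partners, mir-193b is the hairpin upstream of mir-365a. Its level in wild-type clones 52, 55, 57 and 67 was 64.5, 49.8, 78.5 and 70.4 CPM under control shRNAs. Under ERH shRNAs it was 72.6, 44.1, 51.2 and 35.7 CPM, lower in clones 55, 57 and 67 and higher in clone 52. In deletion clones 30, 34, 42 and 43 it was 30.2, 63.4, 81.1 and 64.2 CPM, and then 54.7, 51.4, 66.5 and 55.9 CPM under ERH shRNAs. Clone 30 had the lowest control value of the 8 and was the only deletion clone to go up. The arms overlapped in both genotypes. The log2 fold change over all clones was -0.20 ± 0.17 (SE, adjusted p = 0.381 by edgeR), with a 95% interval of -0.55 to 0.16. It was -0.35 (adjusted p = 0.242 by edgeR) in wild-type clones and -0.03 (adjusted p = 0.951 by edgeR) in deletion clones.

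The mir-193a row, whose hairpin lies upstream of mir-365b, varied most between clones. In wild-type clones 52, 55, 57 and 67 it was at 20.7, 55.4, 45.1 and 22.1 CPM under control shRNAs. The values under ERH shRNAs were 33.1, 46.8, 27.9 and 12.6 CPM. The wild-type clones thus held a high and a low pair under control shRNAs. The ERH value was higher in clone 52 and lower in clones 55, 57 and 67. In deletion clones 30, 34, 42 and 43 the row was at 20.02, 18.2, 23.9 and 8.84 CPM, and then at 24.0, 20.6, 28.0 and 11.7 CPM. Each deletion clone was a little higher under ERH shRNAs, by 0.17 to 0.39 on the log2 scale. This did not pass the test in deletion clones (log2 fold change 0.24 ± 0.16 SE, adjusted p = 0.365 by edgeR). In wild-type clones the value was -0.22 ± 0.25 (SE, adjusted p = 0.534 by edgeR). Over all clones it was -0.0031 ± 0.19 (SE, adjusted p = 0.993 by edgeR), with a 95% interval of -0.39 to 0.39. Over all clones both miR-193 intervals lay wholly above that of mir-365a.

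The ratio of the miR-365 signal to each miR-193 row was taken from counts of the same libraries, so no scaling enters. Since the signal may come from either locus, neither ratio is known to compare the hairpins of 1 pair. Ligation and amplification favour some small RNAs over others, and the ratio was therefore compared between samples and not read as a true excess of miR-365. The log2 ratio of the miR-365 signal to mir-193b in wild-type clones 52, 55, 57 and 67 was 4.61, 5.11, 4.00 and 4.34 under control shRNAs. Under ERH shRNAs it was 3.37, 3.95, 3.16 and 3.58, lower in each clone. In deletion clones 30, 34, 42 and 43 it went from 4.69, 4.09, 4.24 and 3.64 to 3.16, 3.14, 3.33 and 2.85. The change was -1.02 ± 0.27 (SD, n = 8), and all 8 clones went down (two-sided exact permutation test by sign flips, p = 0.00781, the smallest that 8 clones can give). Its adjusted p over the 12 tests of 3 ratios was 0.0469 by the exact permutation test. In linear terms the signal was 21.2 ± 6.96 times mir-193b under control and 10.2 ± 2.52 times under ERH shRNAs (SD, n = 8).

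The ratio to mir-193a also fell. In wild-type clones 52, 55, 57 and 67 its log2 value was 6.25, 4.96, 4.80 and 6.004 under control shRNAs and 4.50, 3.86, 4.03 and 5.08 under ERH shRNAs. Deletion clones 30, 34, 42 and 43 went from 5.28, 5.89, 5.996 and 6.48 to 4.34, 4.46, 4.58 and 5.10. All 8 clones were lower, and the mean change was -1.21 ± 0.33 (SD, n = 8). The exact permutation test gave p = 0.00781 and, adjusted over the 12 tests, 0.0469. Without any 1 clone the adjusted p of both ratio changes was 0.0938 by the exact permutation test. Sign flips of 7 clones cannot give an unadjusted p below 0.0156. Both ratios share the miR-365 signal, so their tests are not independent. Over all 8 clones each adjusted p passed the threshold only because both ratios reached the smallest p. The ratio between the partners, mir-193a to mir-193b, differed between arms by 0.19 ± 0.41 (SD, n = 8) and went down in 3 of 8 clones, without passing the exact permutation test (p = 0.25, adjusted 0.539).

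**Figure D2:**
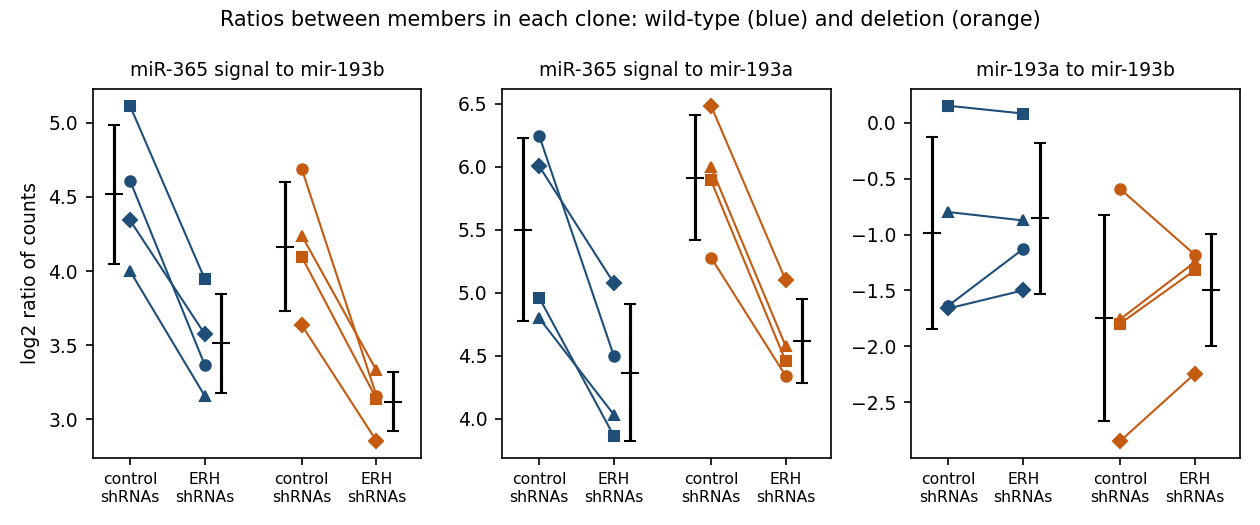
Log2 ratios of counts between members in each clone under control and ERH shRNAs; bars beside the points give the mean and SD of the 4 clones of a group. Both ratios with the miR-365 signal fall in all 8 clones, and the ratio of mir-193a to mir-193b does not move in 1 direction.

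The ratio changes did not differ past the threshold between genotypes. Against mir-193b, wild-type clones changed by -1.004 ± 0.24 and deletion clones by -1.04 ± 0.33 (SD, n = 4). The genotypes differed by -0.04, with p = 0.829 before and after adjustment in the exact permutation test. Against mir-193a the same values were -1.13 ± 0.43 and -1.29 ± 0.24 (SD, n = 4), -0.16 apart (p = 0.543 by exact permutation, 0.651 adjusted). With 4 clones against 4, the exact test cannot go below p = 0.0286.

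Each ERH shRNA was also set alone against the same control sums, to see whether both vectors gave a drop. With ERH shRNA 1 the log2 fold change of mir-365a was -1.198 ± 0.10 (SE, adjusted p = 2.12e-08 by edgeR), where 14.7% of 655 rows were called lower. With ERH shRNA 2 it was -1.30 ± 0.18 (SE, adjusted p = 3.41e-06 by edgeR), where 11.9% of 657 rows were called lower. The miR-365 signal was below both control libraries of its clone in 8 of 8 clones with each vector. For mir-193b this held in 4 of 8 clones with each vector, and for mir-193a in 2 of 8. How many of all rows reach 8 of 8 was not counted. Single libraries held only 54 to 275 counts of mir-193b and 19 to 165 of mir-193a. With ERH shRNA 1 and 2 the log2 fold changes were -0.20 and -0.17 for mir-193b (adjusted p = 0.375 and 0.557 by edgeR). The mir-193a values were -0.05 and 0.07 (adjusted p = 0.871 and 0.816 by edgeR).

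The 2 ERH vectors differed in spread between clones. In wild-type clones the signal ran from 477 to 659 CPM with ERH shRNA 1 and from 215 to 909 CPM with ERH shRNA 2, where clone 67 was lowest and clone 52 highest. Deletion clones ran from 392 to 817 CPM with ERH shRNA 1 and from 399 to 547 CPM with ERH shRNA 2. Control shRNA 2 against control shRNA 1 gave -0.11 for mir-365a, 0.29 for mir-193b and 0.19 for mir-193a, with adjusted p of 0.857, 0.588 and 0.855 by edgeR. That background comparison called 0% of 571 rows by edgeR, with 48 at an unadjusted p under 0.05.

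**Figure D3:**
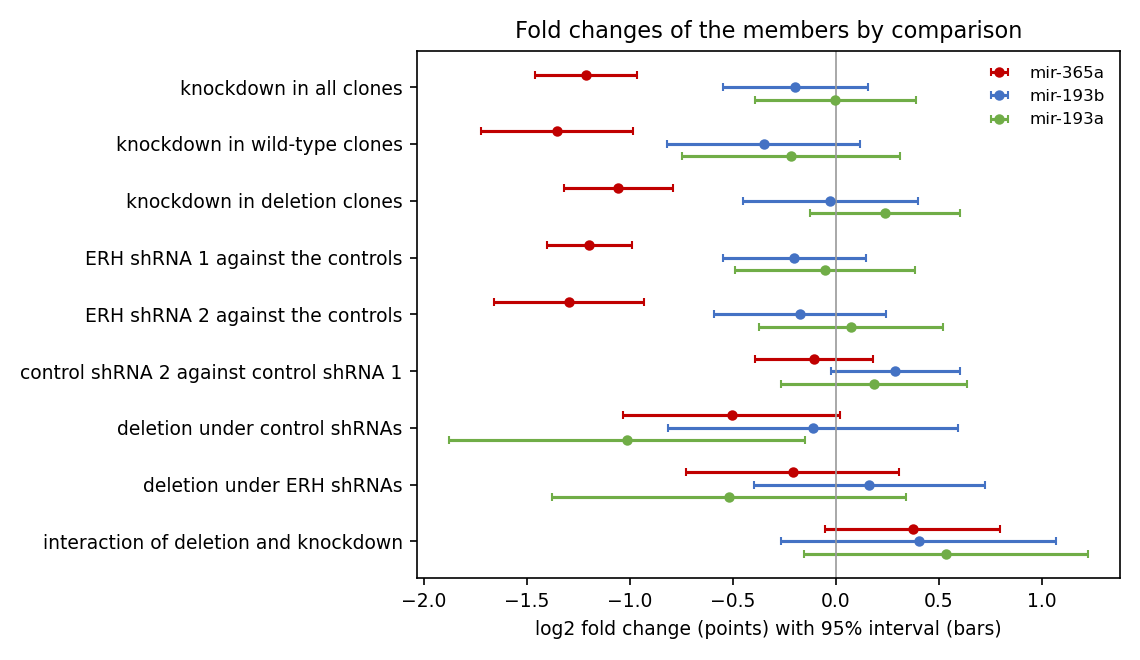
Log2 fold changes (points) and 95% intervals (bars) from the edgeR fits for mir-365a, mir-193b and mir-193a in 9 comparisons. The mir-365a intervals in the 5 knockdown comparisons lie wholly below 0, while those of the miR-193 rows in the same comparisons include 0.

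To ask what loss of the contact site does while ERH is present, deletion clones were set against wild-type clones within the control arm. None of the 4 rows passed the threshold, in a comparison that called 25.9% of 536 rows in either direction and 7.09% of the 536 lower. The values of mir-365a and mir-365b were both -0.51 ± 0.24 (SE, adjusted p = 0.136 by edgeR), with a 95% interval of -1.03 to 0.02 for each. Deletion clones 30, 34 and 43 lay below all wild-type clones, and clone 42 lay within their range. Without clone 42 mir-365a was at -0.74 (adjusted p = 0.0435 by edgeR), and with control shRNA 1 libraries alone at -0.85 (adjusted p = 0.0169 by edgeR). With control shRNA 2 alone it was at -0.24, with spike-in scaling at -0.17 and with total miRNA scaling at -0.06.

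For mir-193a the deletion gave -1.01 ± 0.40 (SE, adjusted p = 0.0762 by edgeR), the largest difference of the 4 rows, with a 95% interval of -1.88 to -0.15. The group means were 35.8 ± 17.2 CPM in wild-type and 17.7 ± 6.39 CPM in deletion clones (SD, n = 4). Wild-type clones 52 and 67 lay within the range of the deletion clones, while clones 55 and 57 lay above it. DESeq2 did call it, at -1.10 (adjusted p = 0.0289). With spike-in or total miRNA scaling no call was made for any of the 4 rows, and mir-193b turned positive. For mir-193b the difference was -0.11 ± 0.33 (SE, adjusted p = 0.829 by edgeR), at 65.8 ± 12.1 and 59.7 ± 21.3 CPM (SD, n = 4). The log2 ratio of the miR-365 signal to mir-193b differed by -0.35 between genotypes (exact permutation p = 0.314, adjusted p = 0.539). The ratio to mir-193a differed by 0.41 (exact permutation p = 0.371, adjusted p = 0.557), in the other direction.

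Within the ERH arm, no member differed between genotypes past the threshold. The difference was -0.21 ± 0.24 for mir-365a, 0.16 ± 0.26 for mir-193b and -0.52 ± 0.40 for mir-193a (SE, adjusted p = 0.662, 0.776 and 0.543 by edgeR). This comparison called 0% of 569 rows by edgeR, with 87 at an unadjusted p under 0.05, and DESeq2 called 8. The log2 ratio of the miR-365 signal to mir-193b differed by -0.39 (exact permutation p = 0.0857, adjusted p = 0.343). The interaction was 0.40 ± 0.31 for mir-193b and 0.53 ± 0.32 for mir-193a (SE, adjusted p = 0.531 and 0.399 by edgeR).

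Deletion clones with ERH shRNAs were finally set against wild-type clones with control shRNAs. The mir-365a row was at -1.49 ± 0.22 (SE, adjusted p = 0.000340 by edgeR), 0.356 of the wild-type control level, where 16.5% of 553 rows were called lower. The value for mir-193b was -0.11 ± 0.24 (SE, adjusted p = 0.729 by edgeR) and that for mir-193a -0.68 ± 0.39 (SE, adjusted p = 0.171 by edgeR). The mean miR-365 signal of this combined group, 504 CPM, was the lowest of the 4 groups, but its range overlapped that of wild-type clones with ERH shRNAs, from which it was not distinguished above.

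The same comparisons were read in a list of 31 other rows whose hairpins have a neighbouring hairpin. All 31 were tested for the knockdown over all clones. In that comparison, with 16.5% of all rows called lower, 22 were called lower, 0 higher and 9 were not called, with a median log2 fold change of -0.37 against 0.06 for all rows. The largest drops were those of mir-212 at -2.01, mir-192 at -1.95 and mir-15a at -1.75. Of neighbouring hairpins, mir-221 at -0.37 and mir-222 at -0.33 were both called, whereas mir-132, the neighbour of mir-212, was at -0.15 and not called. Under the deletion with control shRNAs, with 7.09% of all rows called lower, 6 of 30 tested list rows were called lower and 0 higher. The median of the list was -0.44 against -0.03 for all rows. There the largest called differences were -0.94 for mir-15b, -0.79 for mir-181b and -0.69 for mir-191. The list was drawn up with earlier results of these data known and is no independent evidence of its direction.

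Finally, each signal was compared with 312 other rows by Pearson's r of log2 CPM over the 16 clone sums. These share 8 clones and 2 arms, so r is a description only. The rows most like the miR-365 signal were mir-15b (r of 0.88), mir-589 (0.87), mir-374b (0.84), mir-15a (0.83) and mir-502 (0.83). Its own partners stood lower among the 312 rows, mir-193b at rank 74 (0.46) and mir-193a at rank 112 (0.38). Ordered by likeness to each partner, the signal was at rank 30 for mir-193b and at rank 64 for mir-193a. The rows most like mir-193b were mir-7977 (0.81), mir-423 (0.78), mir-92a (0.68), mir-106b (0.67) and mir-486 (0.65). Those most like mir-193a were mir-1290 (0.86), mir-375 (0.79), mir-203a (0.72), mir-378a (0.68) and mir-125b (0.67). The 2 miR-193 rows had an r of 0.13 with each other. Their counts are low, and the counting error given above is part of every r with either of them.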

How the data were processed

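Small RNA libraries were made with the QIAGEN QIAseq miRNA kit after 4 reference small RNAs were added to 400 ng of total RNA, per the labels' protocols. The deposited values are whole-number read counts per miRNA precursor, per the file headers. SAMtools is named in the submitters' processing notes. The aligner, annotation release, genome build, trimming and any use of molecular identifiers are not given in the sources used here. A row has the name of a hairpin, and whether it holds reads of 1 or both mature strands is not given. How the authors assigned reads that fit both miR-365 hairpins is not stated either, and their nearly equal rows are not independent. All rows carried a name, and 0 columns lacked a sample.

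In each clone, both libraries with the same kind of shRNA were added into 1 sum. The sums were tested with edgeR 4.0.16 (R 4.3.3), with filterByExpr, TMM scaling over miRNAs, the quasi-likelihood test and Benjamini-Hochberg adjustment over all rows tested. An adjusted p under 0.05 was a call. Knockdown and interaction had the clone as a block, because each clone received all 4 vectors. This pairing was checked: control and ERH deviations from the group mean correlated within each clone (r of 0.42 to 0.86 over 314 rows). Intervals are the estimate plus or minus the 95% t quantile times its standard error. CPM are TMM-scaled, with a prior count of 2 for log2 values. Ratios used sums plus 0.5 and exact permutation tests. Hairpins were folded with RNAfold 2.7.2. The script was tested on simulated data.

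Always named were the 4 members, and by rule the 5 rows most alike each signal (mean of at least 100 counts per sum) and up to 3 called rows per direction of the neighbour list with the largest fold change. The rows mir-221, mir-222 and mir-132 were named after their values were seen. The members and lists were chosen with earlier results of these data known. Alternatives were DESeq2 1.42.0, spike-in or total miRNA scaling, other filters, 1 merged miR-365 row, single libraries or vectors, no replicate block, another pseudocount and each clone left out.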

Additional observations from a re-analysis of the deposited data

Results flagged for a closer look

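In deletion clones under ERH shRNAs the log2 ratio of mir-193a to mir-193b was -2.25 in clone 43. The other 3 clones lay between -1.32 and -1.18, so that the gap below them took 0.871 of the whole range. Clone 43 also had the lowest ratio under control shRNAs, at -2.85, and the lowest mir-193a level of all clones in both arms. This was 1 of 30 groups of clones examined in this way, and chance alone would make about 1 in 20 stand out.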

How the results depend on the processing

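The knockdown drop of mir-365a and mir-365b kept its direction and its call in 81 of 81 alternative values over all, wild-type and deletion clones. These values count 1 signal in both of its rows. For mir-365a alone they were 18 of 18 over all clones, 12 of 12 in wild-type and 12 of 12 in deletion clones. Some calls were narrow, with an adjusted p of 0.0426 by edgeR in wild-type clones with spike-in scaling. In deletion clones without the replicate block it was 0.0484 by edgeR. None of 149 alternative values for the miR-193 rows in the knockdown, the interaction or the deletion under ERH shRNAs passed the threshold. Without the replicate block, mir-365a was at -1.23 (adjusted p = 0.000329 by edgeR) over all clones, so the pairing by clone did not decide its call, while the rows called fell from 244 to 37.

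Small values changed sign. For the knockdown over all clones mir-193a was 0.46 with spike-in scaling, 0.27 with total miRNA scaling, 0.063 without a filter, 0.13 with a mean of at least 100 counts, 0.078 with each library as its own sample, 0.083 with shRNA 1 libraries only, 0.055 with shRNA 2 libraries only, and -0.10 to 0.086 without 1 clone. With spike-in and total scaling, mir-193b was 0.27 and 0.075 over all clones, 0.27 and 0.16 in deletion clones, and 0.26 and 0.33 for the deletion under control shRNAs. In wild-type clones spike-in scaling gave 0.39 for mir-193a and 0.26 for mir-193b, and total scaling gave 0.12 for mir-193a. With a mean of at least 100 counts mir-193b was 0.019 for the knockdown in deletion clones and 0.048 for the deletion, and with each library as its own sample the former was 0.0082. Without 1 clone these ran from -0.28 to 0.055 and from -0.29 to 0.16. The interaction of mir-365a and mir-365b was -0.026 and -0.019 with spike-in scaling. The genotype difference in ratio change was 0.10 for the miR-365 signal to mir-193b with shRNA 1 only (-0.13 to 0.12 without 1 clone), 0.068 for the signal to mir-193a and -0.15 for mir-193a to mir-193b with shRNA 2 only. The cause was not tested.

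Some alternatives called the deletion under control shRNAs. These were, for mir-193a, DESeq2 at -1.10, each library as its own sample at -1.06 and shRNA 1 only at -1.59. For mir-365a and mir-365b they were each library as its own sample at -0.54 and -0.54, shRNA 1 only at -0.85 and -0.85, and leaving out clone 42. The setting with each library as its own sample counts both control libraries of a clone as separate replicates. Its calls therefore do not rest on the clone as the replicate. Without 1 clone the range was -0.74 to -0.33 for mir-365a and -0.75 to -0.33 for mir-365b. Without 1 clone the knockdown change of the ratio to mir-193b was -1.06 to -0.95 and that to mir-193a -1.28 to -1.14. Both had an adjusted p of 0.0938 by exact permutation, where 7 clones allow no unadjusted p below 0.0156.

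Counts of rows called depended on the processing. Against 244, 192, 65 and 139 for the knockdown in all, wild-type and deletion clones and the deletion under control shRNAs, alternatives gave 37 to 281, 94 to 259, 13 to 109 and 35 to 223. Leaving out 1 clone gave 159 to 230, 112 to 197, 30 to 119 and 83 to 129, the lowest without clones 55, 57, 30 and 34. Against 0, the deletion under ERH shRNAs gave up to 55 and the interaction up to 52, both with each library as its own sample. Low counts limit the miR-193 rows, with a Poisson SD of 13.7% for the lowest mir-193a sum.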

Other observations

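Since the miR-365 signal joins both loci, it was also set against the sum of mir-193a and mir-193b, a comparison chosen after the data were seen and given without a test. The signal was 14.4 ± 2.79 times the summed miR-193 rows under control shRNAs (SD, n = 8) and 6.85 ± 1.00 times under ERH shRNAs. The control values ran from 10.2 to 18.5 and the ERH values from 5.78 to 8.83. Wild-type clones changed by -1.03 ± 0.28 and deletion clones by -1.08 ± 0.19 on the log2 scale (SD, n = 4), and all 8 went down.

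Base composition was looked at beside the knockdown. Rows whose hairpin lay within 5 percentage points of the G and C content of mir-365a numbered 186, and their median knockdown log2 fold change was -0.04. The same median was -0.10 for 204 rows around mir-193b and -0.0030 for 96 rows around mir-193a. The part of base composition in the drop of miR-365 was not tested.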
